A study of Mus musculus with 14 samples.

Results

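Livers of mice that lack Mdr2 were compared with wild-type livers over all 19938 genes that the array names by a probe of their own. The mice were females aged 14 months, and the RNA was read on Affymetrix mouse gene arrays. The comparison rests on 8 of the 14 arrays, 3 labelled wild type (strain C57BL/6) and 5 labelled Mdr2-KO, whose tissue is described as tumour-free. The other 6, labelled Mdr2-KO/IL6-KO, came from mice that lack IL6 as well as Mdr2, and they entered the same model. The labels give no strain for either knockout, so strain background and loss of Mdr2 cannot be told apart. They do not say how the alleles were made, whether the mice carried tumours elsewhere in the liver, or whether each array is a separate mouse. The p-values therefore measure the spread between arrays, which may be partly technical.

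The gene Mdr2 is now called Abcb4. Its protein sits in hepatocytes and moves phosphatidylcholine across the canalicular membrane into bile. Phosphatidylcholine packs bile acids and cholesterol into mixed micelles, and without it free bile acids injure the cells that line the bile ducts. Mice without Abcb4 are used as a model of sclerosing cholangitis, in which duct injury is followed by periportal scarring, inflammation and, in old animals, liver tumours.

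All values are log2 signals, and a difference is the Mdr2-KO mean minus the wild-type mean with its standard error (SE), n = 3 wild-type and n = 5 Mdr2-KO arrays. A gene was called higher or lower, and is said to have risen or fallen, where the adjusted p was under 0.05. Olfactory receptor genes are silent in liver, and 5.49, which 95% of 1015 of them did not reach, served as the background of the array. The tissue is whole liver, so fewer cells of a type and less RNA per cell cannot be told apart. Hepatocyte genes marked every array as liver: albumin (Alb) read 13.09 to 13.13 in wild type and 13.12 to 13.22 in Mdr2-KO, and the mean over 11 hepatocyte defining genes lay between 11.93 and 11.94 in wild type and between 11.97 and 12.09 in Mdr2-KO.

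In Mdr2-KO 4189 of the 19938 genes were called (21.0%), 1772 of them higher (8.89%) and 2417 lower (12.1%). The difference was small in most, with a median size of 0.36 among called genes beside a median SE of 0.092. At least 2-fold changes numbered 136 higher and 85 lower, at least 4-fold changes 22 and 14, and at least 8-fold changes 4 and 7. The arrays of the groups did not overlap in 4684 genes (23.5%), with Mdr2-KO higher in 2046 (10.3%) and lower in 2638 (13.2%), and 3448 genes were both called and free of overlap. Among the 13727 genes with both means above background, 1678 rose and 1696 fell, and 575 of the called genes had both means under background. The median difference was -0.073 over all genes, -0.03 over those 13727 and -0.108 over olfactory receptor genes. The count of called genes was 2140 without wild-type array 3, with 988 higher and 1152 lower, and 2015 of the 4189 genes remained called.

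**Figure D1:**
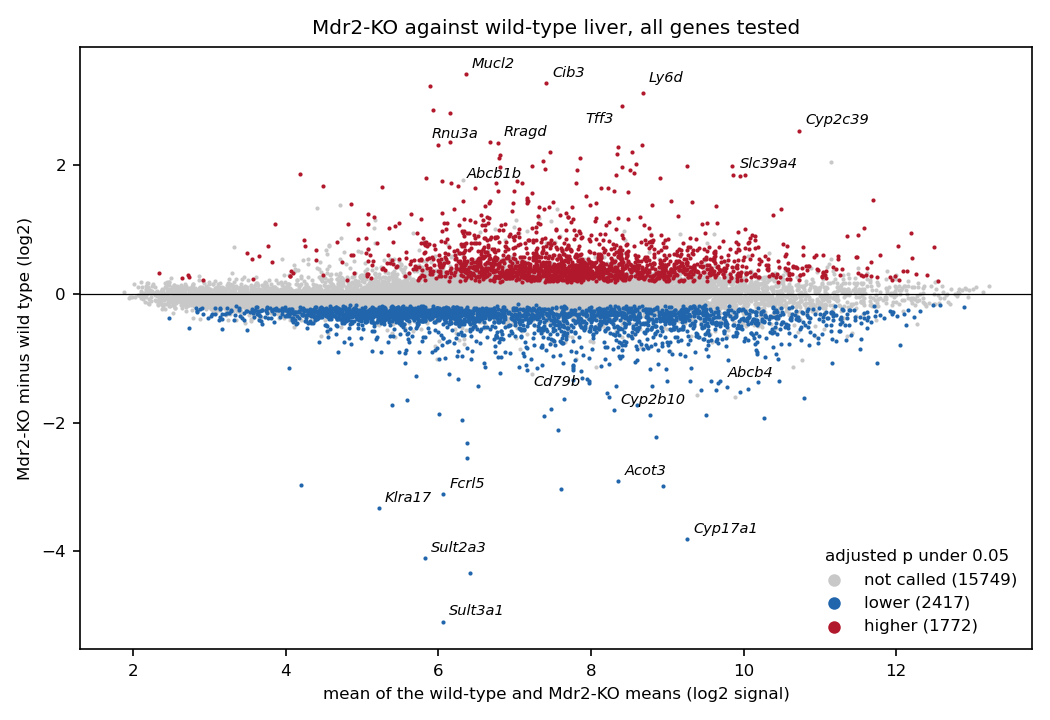
Difference between Mdr2-KO and wild type (log2, vertical axis) against the mean of the 2 group means (log2 signal, horizontal axis) for all 19938 genes. Red points are the 1772 genes called higher, blue points the 2417 called lower and grey points the genes not called; large rises and falls both occur well above the background of 5.49.

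Array 3 of Mdr2-KO stood apart from the other 4. Its neutrophil genes were high: the mean over 12 neutrophil markers was 8.87 there, 6.15 to 6.31 in the other Mdr2-KO arrays and 6.22 to 6.36 in wild type. S100a8, a calcium-binding protein of neutrophil granules, read 10.12 in array 3 and 6.16 to 6.71 in the other 4, and Mpo, the myeloperoxidase of the same granules, 9.16 against 5.27 to 5.71. Acute phase proteins averaged 12.01 there against 11.04 to 11.19, with serum amyloid A1 (Saa1) at 11.12 against 6.97 to 7.51. Targets of the fatty acid receptor PPAR-alpha averaged 9.0 there against 9.54 to 9.84. Without array 3 the count of called genes was 3598, with 1611 higher and 1987 lower, and 3319 of the 4189 genes remained called.

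**Figure D2:**
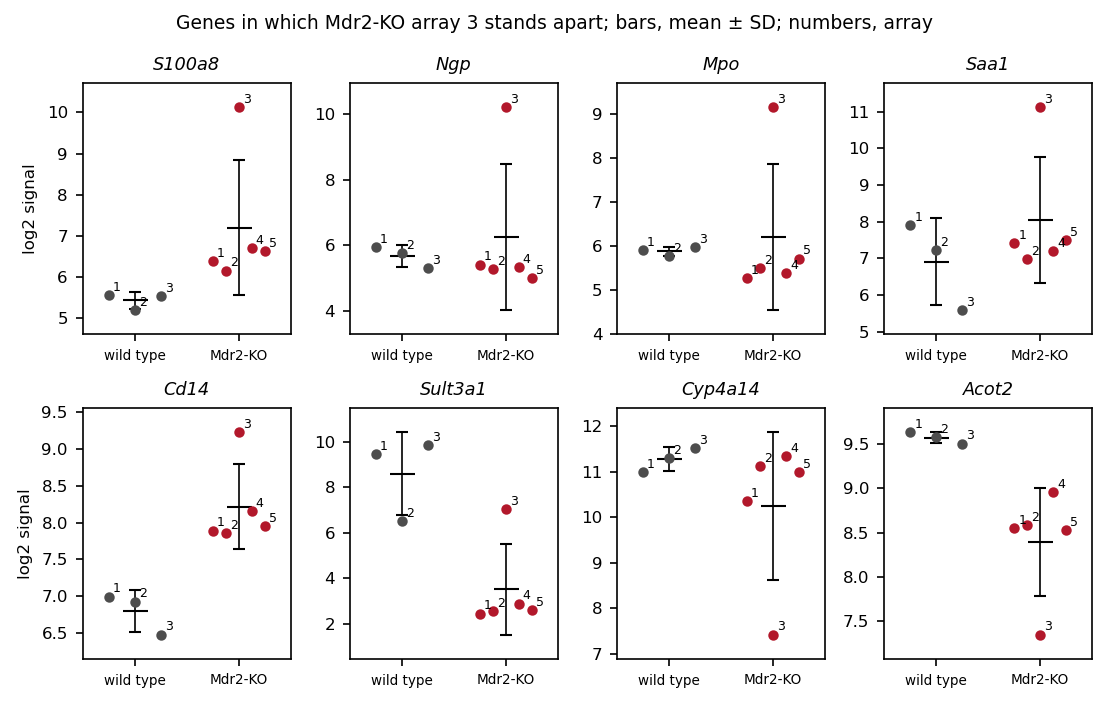
Log2 signal of 8 genes in each wild-type (grey) and Mdr2-KO (red) array, numbered by array, with bars for the group mean ± SD. Mdr2-KO array 3 lies above the other 4 in S100a8, Ngp, Mpo, Saa1, Cd14 and Sult3a1 and below them in Cyp4a14 and Acot2.

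Abcb4 itself fell in every Mdr2-KO array. It read 10.37, 10.33 and 10.39 in wild type and 8.93, 9.09, 9.05, 9.23 and 8.73 in Mdr2-KO. No Mdr2-KO array reached the lowest wild-type array, and the difference was -1.36 (SE 0.12, adjusted p = 5.09e-06), a 2.56-fold fall. The remaining signal lay above background, and the array annotation does not say where its probes lie relative to the deleted part. Of 45 other genes within 10 Mb of Abcb4, 6 rose and 6 fell (26.7% called), against 22.6% on the rest of the chromosome and 20.9% on the other chromosomes. Those neighbours included Tmem243, which fell by 0.52 (adjusted p = 0.000481), and the tight-junction gene Cldn12, which fell by 0.35 (adjusted p = 0.0041).

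Among the other transporters of the canalicular membrane, 2 drug pumps rose and a sterol pump fell. Abcb1b, a P-glycoprotein that exports drugs and hydrophobic cations, read 5.42, 5.77 and 5.10 in wild type and 7.37, 7.32, 7.10, 6.87 and 6.82 in Mdr2-KO. All Mdr2-KO arrays lay above all wild-type arrays and the rise was 1.67 (SE 0.15, adjusted p = 6.76e-06), although wild type straddled the background. Abcg2, the breast cancer resistance protein that exports sulfated compounds, rose by 0.68 (SE 0.13, adjusted p = 0.00259). Abcg5, which with Abcg8 secretes cholesterol into bile, fell by 0.54 (adjusted p = 0.00762). Abcg8 was called lower too, but not without wild-type array 3 or Mdr2-KO array 3 or 4 (adjusted p = 0.177, 0.0539 and 0.0622). Its call was also lost with array weights (0.0637) and with only the groups compared in the fit (0.0662). The bile salt pump Abcb11 read 10.75 to 11.20 in wild type and 11.16 to 11.49 in Mdr2-KO and was not called (0.30, adjusted p = 0.0637). Of the 12 canalicular transporters, Abcb4 included, 2 rose and 3 fell (41.7% called, against 21.0% of all genes), with a median difference of -0.003 beside -0.073 over all genes.

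Genes for the uptake, synthesis and sensing of bile acids moved in both directions. Of 12 basolateral uptake and export transporters 1, Slc51b, rose and 2 fell (21.0% of all genes were called). The difference was above 0 in 8 of the 12, with a median of 0.138 beside -0.073 over all genes, and the largest was 1.031. The call of Slc51b was lost without wild-type array 1 or 3 (adjusted p = 0.0874 and 0.128). Without wild-type array 1 none rose, without Mdr2-KO array 3 2 rose, and 1 fell without wild-type array 3 or Mdr2-KO array 1, 3 or 4. Slc10a1, the sodium-dependent carrier that takes bile acids up from blood, read 12.38, 12.37 and 12.50 in wild type and 12.03, 12.08, 12.14, 12.07 and 11.97 in Mdr2-KO. The groups did not overlap, and the difference was -0.36 (SE 0.079, adjusted p = 0.00577). Cyp7a1, the rate-limiting enzyme of classical bile acid synthesis, fell by 0.70 (adjusted p = 0.0345). That call was lost when Mdr2-KO array 3 or 4 was omitted (adjusted p = 0.0534 and 0.0744), when wild-type array 1 or 3 was (0.126 and 0.0989), and with trend and robust moderation (0.053). Nr1h4, the bile acid receptor FXR, read 9.95, 9.94 and 9.90 in wild type and 9.56, 9.57, 9.55, 9.53 and 9.51 in Mdr2-KO. Its Mdr2-KO arrays kept within a narrow band under the wild type (-0.38, adjusted p = 0.0231), but the call did not outlast the omission of wild-type array 1 or 3 (adjusted p = 0.0653 and 0.0634). Nr1i3, the xenobiotic receptor CAR, fell by 0.93 (SE 0.20, adjusted p = 0.00583), with Mdr2-KO array 5 at 10.63 just above the lowest wild-type array at 10.56. Of 10 genes of bile acid sensing 1, Fgfr4, rose and 3 fell (40.0% called, against 21.0% of all genes). The median difference of the 10 was -0.117, with 3 above 0. None of the 10 rose without wild-type array 1 or 2, and 1 fell without wild-type array 1 or 3. Of 14 genes of bile acid synthesis and conjugation 3 were called (21.4%, near the share of all genes): 1, the sterol carrier Scp2, rose and 2, Cyp7a1 and the oxysterol hydroxylase Cyp7b1, fell. The median difference of the 14 was 0.003, with 7 above 0. Without wild-type array 3 none of the 14 was called, without wild-type array 1 none rose and 1 fell, and without Mdr2-KO array 3 or 4 1 fell.

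Among 8 measured enzymes that make and remodel phosphatidylcholine, the lipid that Abcb4 moves, 3 were called (37.5%, against 21.0% of all genes). Cept1, which joins choline or ethanolamine heads to diacylglycerol, read 10.25, 10.16 and 10.24 in wild type and 9.64, 9.62, 9.54, 9.92 and 9.71 in Mdr2-KO. Its groups were separate and the difference was -0.53 (SE 0.11, adjusted p = 0.00327). Lpcat3, which puts polyunsaturated chains into phosphatidylcholine, fell by 0.39 (SE 0.081, adjusted p = 0.00413). Pemt, which makes phosphatidylcholine by methylation, read 11.59 to 11.68 in wild type and 11.43 to 11.66 in Mdr2-KO (-0.12, adjusted p = 0.237). Of the 8, Cept1 and Lpcat3 fell and 1, choline kinase alpha (Chka), rose (0.82, adjusted p = 0.0428). The call of Chka ended when any 1 wild-type array was left out (adjusted p = 0.113, 0.0676 and 0.112), when Mdr2-KO array 2, 3 or 4 was (0.0565, 0.076 and 0.0926), and when array 3 or 4 of the double knockout was (0.0511 and 0.0533). It also ended after quantile normalization (0.0536), with trend and robust moderation (0.0691) and with only the groups compared in the fit (0.0741).

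Many cholesterol synthesis genes and some PPAR-alpha targets fell. Of 17 cholesterol synthesis genes 9 fell (52.9%, against 12.1% of all genes) and none rose, with a median of -0.35 beside -0.073 over all genes; without wild-type array 1 or 3 the count was 5. Idi1, which isomerises isopentenyl diphosphate, read 11.35, 11.25 and 11.46 in wild type and 10.55, 10.49, 10.65, 10.71 and 10.56 in Mdr2-KO. Every Mdr2-KO array lay under every wild-type array, and the difference was -0.76 (SE 0.15, adjusted p = 0.00272). Msmo1, a sterol methyl oxidase, fell by 0.62 (adjusted p = 0.00198), while Insig2, which holds the sterol sensor in the endoplasmic reticulum, rose by 0.92 (SE 0.18, adjusted p = 0.00282). Of 20 PPAR-alpha targets and beta-oxidation genes 7 fell, with a median of -0.34, and 1, the very-long-chain dehydrogenase Acadvl, rose, though not with array weights or when wild-type array 2 or 3 or Mdr2-KO array 4 was omitted. Ppara, which encodes the receptor, read 10.88, 10.69 and 10.80 in wild type and 9.92, 9.93, 9.99, 9.90 and 10.11 in Mdr2-KO, without overlap. Acot4, a peroxisomal acyl-CoA thioesterase, read 10.66, 10.31 and 10.37 in wild type and 8.38, 8.64, 7.57, 9.23 and 9.02 in Mdr2-KO. Array 3 was the lowest and every other Mdr2-KO array was also under the wild type (-1.88, SE 0.28, adjusted p = 0.000431). Acadm, the medium-chain dehydrogenase of beta-oxidation, fell by 0.48 (adjusted p = 0.00174). Of 18 fatty acid and triglyceride synthesis genes 2 fell (11.1%) and none rose; none fell without wild-type array 1 or 3 or Mdr2-KO array 1 or 4, and 1 fell without wild-type array 2 or Mdr2-KO array 5. Of 9 genes of sterol regulation and uptake 1 rose and 1 fell, with 2 falls without wild-type array 2 and none without array 3. Of 14 apolipoproteins and VLDL assembly genes 2 rose and 3 fell, with 1 rise without wild-type array 1 or Mdr2-KO array 1. Apoa4, an apolipoprotein of triglyceride-rich particles, rose by 1.32 (SE 0.30, adjusted p = 0.00752), from 9.26, 10.26 and 9.96 to 10.86, 11.18, 11.82, 11.41 and 10.48. The phospholipid transfer protein Pltp fell by 0.76 (adjusted p = 0.00121) and Apom, which carries sphingosine 1-phosphate in plasma, by 0.79 (adjusted p = 0.00325).

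Pank1, a pantothenate kinase at the first step of coenzyme A synthesis, fell together with the microRNA gene in its intron, Mir107. Pank1 read 11.51, 11.40 and 11.61 in wild type and 10.76, 10.86, 10.87, 10.80 and 10.76 in Mdr2-KO, a difference of -0.70 (SE 0.099, adjusted p = 0.000323). Mir107 read 7.47, 7.49 and 7.73 in wild type and 6.31, 6.59, 6.87, 6.69 and 6.78 in Mdr2-KO, a difference of -0.92 (SE 0.17, adjusted p = 0.00239), and no Mdr2-KO array of either gene reached the wild-type range. The labels do not say whether the signal of Mir107 comes from the mature microRNA, its precursor or the host transcript. The mature product shares its seed with miR-103, so both sequences are shown, from RefSeq on GRCm38.p6, with the seed (bases 2 to 8) in capitals; miR-107-3p lies at chr19:34820700-34820722 on the minus strand and miR-103-3p at chr11:35782447-35782469 on the plus strand.
mmu-miR-107-3p: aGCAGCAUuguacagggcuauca
mmu-miR-103-3p: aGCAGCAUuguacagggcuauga
Of the genes for miR-103, Mir103-2 was not called, with a difference of 0.13 (adjusted p = 0.479), and Mir103-1 was called lower (-0.42, adjusted p = 0.0137) but lay under background in both groups. That call was lost once wild-type array 1 or 3 was omitted (adjusted p = 0.0596 and 0.0579) and after quantile normalization (0.0526). Of 300 microRNA genes tested 6 rose and 27 fell (8.89% and 12.1% of all genes did), and 22 of those called had the higher group mean above background.

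Genes that are higher in female than in male mouse liver fell, and some male-biased genes rose. Of 15 measured genes that are higher in female liver 11 fell (73.3%, against 12.1% of all genes), with a median of -1.93, and of 14 male-biased genes 5 rose and 1 fell (8.89% of all genes rose). Cyp2d9, a male-biased steroid hydroxylase, read 7.32, 7.61 and 7.33 in wild type and 9.55, 9.35, 9.51, 9.12 and 9.44 in Mdr2-KO. The groups were well apart and the rise was 1.97 (SE 0.12, adjusted p = 1.41e-07), a 3.92-fold change. C6, a male-biased complement component, rose by 1.35 (SE 0.19, adjusted p = 0.000283), from 8.78, 9.33 and 8.76 to 10.62, 10.56, 10.63, 9.86 and 9.88. Sult3a1, a female-biased sulfotransferase, read 9.45, 6.5 and 9.85 in wild type and 2.44, 2.56, 7.06, 2.88 and 2.60 in Mdr2-KO. Wild-type array 2 was the lowest of its group and Mdr2-KO array 3 lay above it, while the other 4 Mdr2-KO arrays were under background. Hao2, a female-biased hydroxyacid oxidase, read 8.13, 7.72 and 7.10 in wild type and 5.01, 4.70, 3.93, 6.21 and 5.64 in Mdr2-KO, without overlap (-2.55, SE 0.41, adjusted p = 0.000803). Some Mdr2-KO arrays of Hao2 were under background, so the size of its fall is not exact. The growth hormone receptor Ghr, through which pituitary pulses set much of this bias, read 11.73, 11.58 and 11.57 in wild type and 11.10, 11.10, 11.09, 11.20 and 11.19 in Mdr2-KO, a difference of -0.49 (SE 0.083, adjusted p = 0.0011). Igfbp3, the main plasma carrier of insulin-like growth factors, fell by 0.99 (adjusted p = 0.00102). Of 13 genes of the growth hormone, STAT5 and IGF1 axis 1, Bcl6, rose and 2 fell (23.1% called, near 21.0% of all genes). Their median difference was 0.003, and none rose without wild-type array 1 or 3. Without wild-type array 2 or 3 the count of male-biased genes that fell was 2 or 0.

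Drug-metabolising cytochromes changed in both directions. Cyp2c39, which hydroxylates retinoic acid, read 9.80, 9.07 and 9.50 in wild type and 12.16, 11.85, 11.65, 12.29 and 11.99 in Mdr2-KO. All Mdr2-KO arrays were far above the highest wild-type array, and the rise was 2.53 (SE 0.14, adjusted p = 6.5e-08), a 5.78-fold change. Cyp2b10, the typical target of CAR, read 9.09, 9.44 and 9.09 in wild type and 7.67, 6.66, 7.38, 7.86 and 7.40 in Mdr2-KO and fell by 1.81 (SE 0.29, adjusted p = 0.000826). Cyp2c37 and Cyp2c54 fell by 1.62 and 1.01 (adjusted p = 0.000542 and 0.00464). Of 15 Cyp2 genes 5 fell and 2 rose (12.1% of all genes fell); without wild-type array 3, 3 fell. NRF2 targets and glutathione genes rose in 9 of 16 and fell in 2 (8.89% of all genes rose), with a median of 0.44, and 5 rose without wild-type array 3. Gstm3, a glutathione transferase, read 11.57, 11.66 and 11.70 in wild type and 12.57, 12.48, 11.91, 12.39 and 12.60 in Mdr2-KO, with Mdr2-KO array 3 the lowest of its group yet above the wild type (0.74, SE 0.13, adjusted p = 0.00177). The zinc importer Slc39a4 had among the smallest p-values of all genes. It read 8.88, 8.96 and 8.99 in wild type and 10.91, 10.98, 10.60, 10.68 and 10.78 in Mdr2-KO, a rise of 1.85 (SE 0.10, adjusted p = 6.39e-08). Ftl1, the ferritin light chain that stores iron, rose by 0.31 (adjusted p = 0.00737).

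Plasma proteins made by hepatocytes moved in both directions. C8g, a subunit of the complement membrane attack complex, read 11.62, 11.45 and 11.66 in wild type and 10.81, 10.79, 10.87, 10.76 and 10.97 in Mdr2-KO. Its groups did not overlap and the difference was -0.74 (SE 0.08, adjusted p = 3.8e-05). F13b, the carrier subunit of the fibrin-crosslinking factor XIII, read 10.95 to 11.01 in wild type and 10.15 to 10.24 in Mdr2-KO; the 5 Mdr2-KO arrays nearly coincided (-0.79, SE 0.12, adjusted p = 0.000434). C5ar1, the receptor for the complement fragment C5a, rose by 0.90 (SE 0.11, adjusted p = 0.000116). Of 19 complement genes 2 rose and 4 fell (31.6% called, against 21.0% of all genes); the count of falls was 2 without wild-type array 1 or Mdr2-KO array 1 or 5. Of 20 coagulation genes 2 rose and 2 fell; without wild-type array 3, 1 fell and none rose, and 1 rose without wild-type array 1 or 2 or Mdr2-KO array 3 or 4. Among 20 acute phase genes the call of haptoglobin (Hp, 0.28, adjusted p = 0.034) was the only 1, and it was lost when array 3 of Mdr2-KO or of wild type was omitted (adjusted p = 0.059 and 0.179), with array quality weights (0.078) and with only the groups compared in the fit (0.08). Without wild-type array 2 or Mdr2-KO array 5, 2 of the 20 rose, and without Mdr2-KO array 3, 2 fell. Lifr, the receptor of leukemia inhibitory factor in the IL6 family, read 11.33, 10.13 and 10.83 in wild type and 9.88, 9.77, 9.77, 9.80 and 9.69 in Mdr2-KO, and the 5 Mdr2-KO arrays lay together under the wild type (-0.98, SE 0.18, adjusted p = 0.002). Tdo2, which opens the tryptophan ring, rose by 0.60 (SE 0.089, adjusted p = 0.00045), and Khk, the fructokinase, by 0.60 (SE 0.13, adjusted p = 0.00523).

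Some markers of duct cells and of scar tissue rose. Of 16 cholangiocyte markers 6 rose (37.5%, against 8.89% of all genes) and none fell, and the difference was above 0 in all 16. Cd24a, a surface glycoprotein of biliary progenitors, read 7.14 to 8.54 in wild type and 9.37 to 10.23 in Mdr2-KO. The groups did not overlap, wild-type array 3 was the lowest, and the rise was 1.79 (SE 0.32, adjusted p = 0.00154). Cftr, the chloride channel of duct cells, read 4.55, 4.61 and 4.46 in wild type and 5.66, 5.33, 5.29, 5.76 and 6.10 in Mdr2-KO, with wild type and some Mdr2-KO arrays under background (1.09, SE 0.24, adjusted p = 0.0063). Keratins 8 and 18 (Krt8 and Krt18), which hepatocytes and duct cells share, rose by 0.92 and 0.75 (adjusted p = 0.000582 and 0.0048). Of 29 collagens and matrix genes 8 rose; the number was 5 without wild-type array 1 or 3 or Mdr2-KO array 4, and 13 without Mdr2-KO array 3. The matricellular protein Postn fell (-0.67, adjusted p = 0.0412), but was not called once any of the 3 wild-type arrays was omitted (adjusted p = 0.0695, 0.15 and 0.0545), once Mdr2-KO array 2, 3 or 5 was (0.0517, 0.0668 and 0.0589), with array weights (0.0595), with only the groups compared in the fit (0.0626) or with trend and robust moderation (0.0587). Lumican (Lum), a small proteoglycan of collagen fibrils, read 6.95, 6.91 and 6.57 in wild type and 9.29, 8.73, 8.25, 9.04 and 9.22 in Mdr2-KO, with array 3 the lowest of Mdr2-KO and well above the wild type (2.1, SE 0.22, adjusted p = 2.44e-05). Nidogen (Nid1), which links basement membrane proteins, rose by 0.80 (SE 0.14, adjusted p = 0.00176). Tagln, a contractile protein of myofibroblasts, rose by 0.77 (SE 0.15, adjusted p = 0.00339), and Tgfb3, a ligand of the TGF-beta family, by 0.82 (SE 0.19, adjusted p = 0.00838).

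Many markers of recruited macrophages rose. Of 15 monocyte and macrophage markers 8 rose (53.3%, against 8.89% of all genes) and none fell. Cd9, a tetraspanin of scar-associated macrophages that other liver cells also make, read 7.39, 7.18 and 6.96 in wild type and 8.67, 8.45, 8.94, 8.92 and 8.52 in Mdr2-KO. Both groups were tight and far apart, and the rise was 1.52 (SE 0.13, adjusted p = 4.31e-06). Ccr2, through which monocytes are drawn out of blood, read 5.91, 6.46 and 5.76 in wild type and 7.08, 6.95, 7.15, 7.18 and 7.18 in Mdr2-KO (1.06, SE 0.15, adjusted p = 0.000358). Cd14, the lipopolysaccharide co-receptor, read 6.99, 6.92 and 6.47 in wild type and 7.89, 7.86, 9.23, 8.15 and 7.95 in Mdr2-KO; it was highest in array 3, and the other 4 also exceeded the wild type (1.42, SE 0.28, adjusted p = 0.00331). Mmp12, the macrophage elastase, read 5.98, 6.56 and 6.49 in wild type and 8.57, 8.64, 7.01, 8.91 and 8.86 in Mdr2-KO, lowest in array 3 (2.05, SE 0.34, adjusted p = 0.000996). Of 10 Kupffer cell markers none rose and 1, Timd4, fell (-0.73, adjusted p = 0.0411), a call that omitting any wild-type array ended (adjusted p = 0.104, 0.0584 and 0.125), as did omitting Mdr2-KO array 1, 3 or 5 (0.0737, 0.0659 and 0.0768) and a fit with trend and robust moderation (0.0618). Not every myeloid gene rose: the Fc receptor Fcgr4 read 9.72, 10.09 and 9.31 in wild type and 8.04, 7.90, 8.08, 8.0 and 7.13 in Mdr2-KO, a difference of -1.88 (SE 0.37, adjusted p = 0.00324), and Cd300e of monocytes fell by 2.11 (adjusted p = 0.00245).

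Some genes of natural killer, B and T cells fell. Klra17, a receptor of the Ly49 family of natural killer cells, read 6.75, 7.66 and 6.22 in wild type and 3.57, 3.43, 4.11, 3.31 and 3.35 in Mdr2-KO. Wild type was above background and Mdr2-KO under it in every array, so the size of the fall, -3.32, is not exact (adjusted p = 1.49e-05). Gzma, a granzyme of cytotoxic cells, read 5.91, 5.62 and 5.58 in wild type and 4.78, 4.59, 4.96, 5.19 and 4.44 in Mdr2-KO (-0.91, SE 0.14, adjusted p = 0.00045). Every Mdr2-KO array of Gzma was also under background, so the size of its fall is not exact either. Cd79b, a chain of the B cell receptor, read 7.74, 8.35 and 7.19 in wild type and 6.36, 6.8, 6.22, 6.65 and 6.85 in Mdr2-KO, without overlap (-1.18, SE 0.23, adjusted p = 0.00255), and the B cell kinase Blk fell by 0.56 (adjusted p = 0.00108). Of 11 NK and cytotoxic markers 5 fell and none rose, and of 14 B and plasma cell markers 6 fell and none rose. Of 14 T cell markers 4 fell, and over all genes 12.1% fell. Both group means lay under background in 5 of the NK, 2 of the B cell and 2 of the T cell markers. The B cell falls include Xbp1, also a gene of the unfolded protein response, which read 10.65 to 11.27 in Mdr2-KO. Its call was lost without wild-type array 1 and with only the groups compared in the fit. The T cell count was 2 without wild-type array 1 or Mdr2-KO array 3 and 1 without wild-type array 2, which held the highest wild-type values of Klra17, Cd79b and Cd3g. Icos, the T cell costimulator, fell by 0.45 (SE 0.088, adjusted p = 0.00257).

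**Figure D3:**
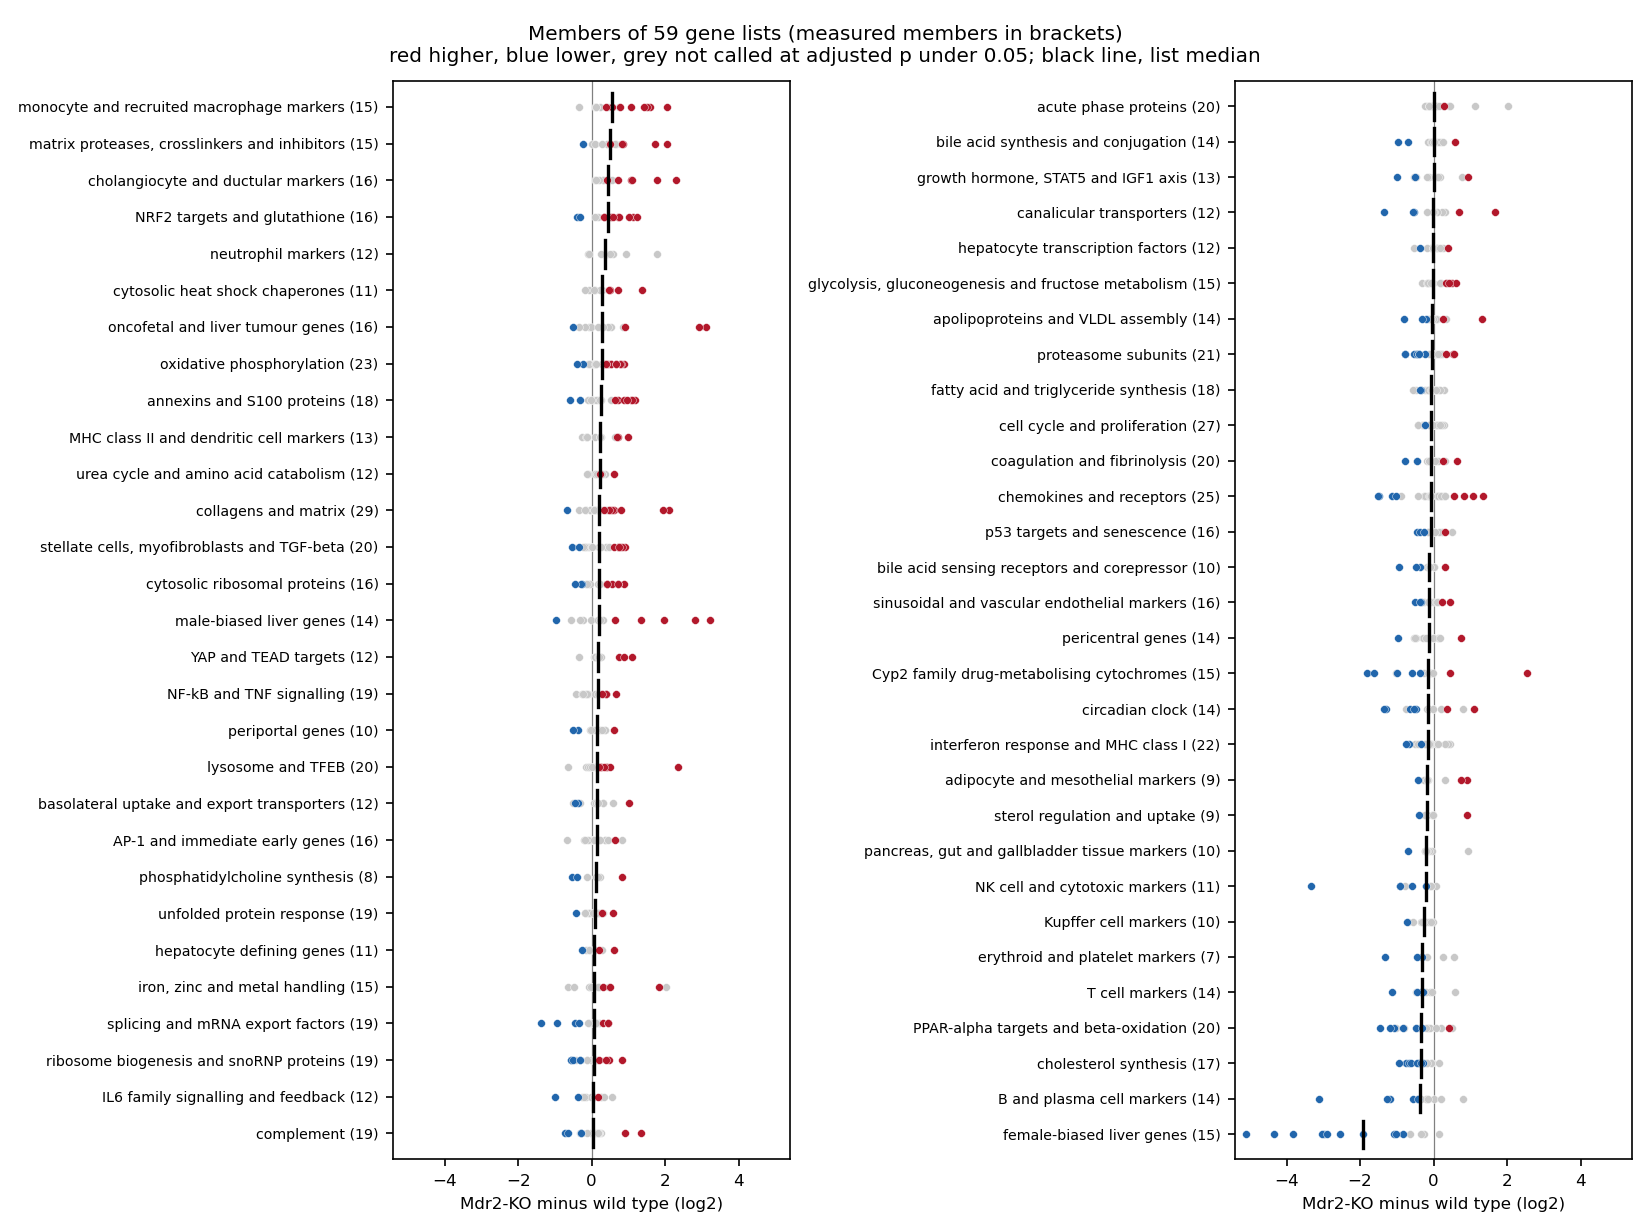
Difference between Mdr2-KO and wild type (log2) of each measured member of 59 gene lists, ordered by the list median (black line), with members called higher in red, called lower in blue and not called in grey. Monocyte and macrophage markers have the highest median, 0.57, and female-biased liver genes the lowest, -1.93.

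Genes for signals between cells moved in both directions. Cxcl9, a chemokine induced by interferon gamma that draws T cells, read 10.72, 11.21 and 10.47 in wild type and 9.71, 9.30, 8.66, 9.85 and 9.04 in Mdr2-KO; the difference of -1.49 (SE 0.40, adjusted p = 0.0175) was not called once wild-type array 2 was omitted (adjusted p = 0.0574). Cxcl14 read 6.8, 6.59 and 6.93 in wild type and 7.79, 7.81, 9.62, 7.77 and 7.60 in Mdr2-KO, highest in array 3, and rose by 1.34 (SE 0.35, adjusted p = 0.015). Of 25 chemokines and receptors 4 rose and 4 fell (8.89% and 12.1% of all genes did); 2 rose without wild-type array 3, none fell without wild-type array 2, and 2 fell without Mdr2-KO array 1, 2 or 3. Ifit3, an antiviral gene induced by interferon, read 9.51, 9.46 and 9.33 in wild type and 8.66, 8.62, 8.64, 9.14 and 8.75 in Mdr2-KO, and Irf9, which carries the interferon signal to DNA, fell by 0.35 (adjusted p = 0.00388), 2 of the 3 falls among 22 interferon and MHC class I genes. Of 19 NF-kB and TNF signalling genes 4 rose and none fell, and 2 rose without wild-type array 1 or 3 or Mdr2-KO array 1 or 2. Nfkb2 and Relb, the partners of the alternative NF-kB pathway, rose by 0.39 and 0.28 (adjusted p = 0.00129 and 0.0131). Tek, the endothelial angiopoietin receptor, fell by 0.52 (adjusted p = 0.00286) and Robo4, an endothelial guidance receptor, by 0.38 (adjusted p = 0.0047). Of 16 endothelial markers 3 fell and 2 rose, Vwf among the rises (31.2% called, against 21.0% of all genes). The rises numbered 1 without wild-type array 1 or Mdr2-KO array 3 or 4, and none without any other array of the 2 groups. Of 7 erythroid and platelet genes 3 fell, among them Gp9, a chain of the von Willebrand factor receptor, which read 6.14, 6.31 and 6.47 in wild type and 5.90, 5.95, 6.04, 5.76 and 5.69 in Mdr2-KO (-0.44, SE 0.085, adjusted p = 0.00277).

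Clock genes differed in a shared pattern across the Mdr2-KO arrays. The liver clock is a loop in which Clock and Arntl (Bmal1) drive Per, Cry and Rev-erb genes, which feed back on them, and the output factors Dbp, Tef and Hlf bind D-boxes in genes such as Per3. Mice were kept in a cycle of light and dark, and the time of day at which livers were taken is not given in the sources used here, so genotype and collection time cannot be told apart for these genes. Per3 read 8.61, 8.77 and 8.24 in wild type and 7.24, 7.27, 6.95, 6.58 and 8.13 in Mdr2-KO, a difference of -1.30 (SE 0.32, adjusted p = 0.0109) with no overlap. Dbp read 9.59, 9.74 and 9.69 in wild type and 8.44, 8.58, 7.91, 7.28 and 9.41 in Mdr2-KO; its difference of -1.35 (SE 0.38, adjusted p = 0.0219) was not called once wild-type array 1 or 3 was omitted (adjusted p = 0.0523 and 0.0741). Arntl read 6.31, 6.27 and 6.39 in wild type and 7.16, 7.29, 7.98, 8.19 and 6.44 in Mdr2-KO and was higher by 1.09 (SE 0.31, adjusted p = 0.0229), a call that omitting any wild-type array ended (adjusted p = 0.0618, 0.0507 and 0.0667). Mdr2-KO array 4 had the lowest Dbp, Per3 and Tef and the highest Arntl, and array 5 lay nearest to the wild type in all 4 genes. Hlf fell by 0.53 (adjusted p = 0.00306) and Nr1d2, the repressor Rev-erb beta, by 0.47 (adjusted p = 0.0142), both under every setting tried. Of 14 clock genes 2 rose and 5 fell (8.89% and 12.1% of all genes did); the falls numbered 3 without wild-type array 1 or 3, and no rise was called without wild-type array 1, 2 or 3 and 1 without Mdr2-KO array 1, 2, 3 or 4.

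**Figure D4:**
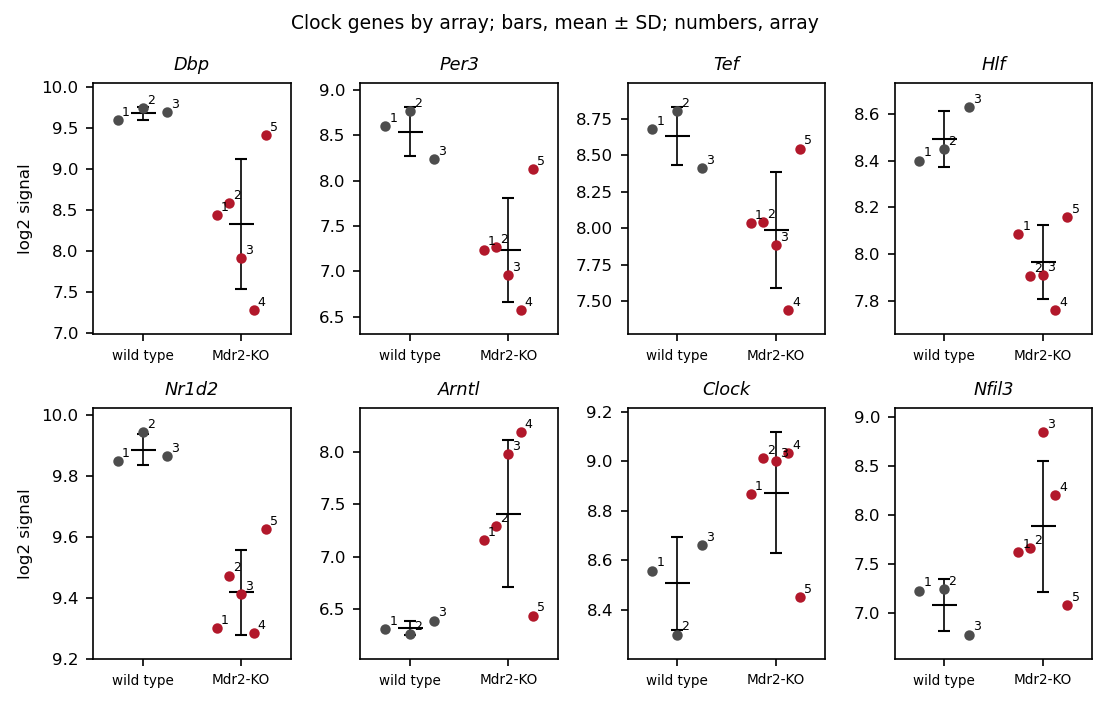
Log2 signal of 8 clock genes in each wild-type (grey) and Mdr2-KO (red) array, numbered by array, with bars for the group mean ± SD. Mdr2-KO array 5 lies nearest to the wild type in Dbp, Per3, Tef and Arntl, and array 4 farthest from it.

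The upstream sequences of some clock genes that moved hold motifs of this loop. Those of Tef and Per3 are shown with the matches in capitals, from RefSeq on GRCm38.p6. The Tef sequence is the 250 bases before 1 of its 2 listed starts (chr15:81802423-81802672, plus strand), with an E-box, CACGTG, 127 bases before the start.
Tef: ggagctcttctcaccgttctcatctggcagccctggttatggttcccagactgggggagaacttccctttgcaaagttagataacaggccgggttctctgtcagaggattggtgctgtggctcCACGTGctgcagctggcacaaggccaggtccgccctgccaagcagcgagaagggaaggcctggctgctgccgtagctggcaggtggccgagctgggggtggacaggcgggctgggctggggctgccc
The Per3 sequence is the 250 bases before its start (chr4:151044666-151044915, minus strand), with 2 copies of the D-box TTATGTAA, the farther of them 205 bases before the start.
Per3: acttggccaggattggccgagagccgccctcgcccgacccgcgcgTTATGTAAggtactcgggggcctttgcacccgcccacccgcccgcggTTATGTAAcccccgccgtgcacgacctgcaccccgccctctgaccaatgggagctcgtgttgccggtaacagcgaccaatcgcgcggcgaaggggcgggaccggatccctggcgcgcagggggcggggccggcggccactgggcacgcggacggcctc
Both strands were searched in windows from 250 bases before to 50 after each start, and the motifs do not overlap each other. CACGTG was in 2349 of 32851 windows (7.15%) and in those of 4 of 13 clock genes, Bhlhe41, Cry1, Per1 and Tef. Of these 4 only Tef was called. A gene can have several windows, so the share of windows and the count of genes are different measures. TTATGTAA was in 308 windows (0.938%), Per3 among them, and the ROR element TAGGTCA, which Rev-erb repressors also bind, in 856 (2.61%), with Arntl and Nfil3 among them. A match describes the letters and not whether a factor binds there. Tef fell by 0.64 (adjusted p = 0.0358), and was not called once any wild-type array was omitted (adjusted p = 0.0932, 0.0961 and 0.0539), once Mdr2-KO array 1, 3 or 4 was (0.0566, 0.0604 and 0.0722), or with only the groups compared in the fit (0.0522).

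Some annexin, S100 and lysosomal genes rose. Annexins and S100 proteins, calcium-dependent binders of membranes and cytoskeleton, rose in 7 of 18 and fell in 2 (8.89% of all genes rose and 12.1% fell). S100a11, a partner of annexin A1, read 9.16, 9.77 and 9.41 in wild type and 10.46, 10.36, 10.51, 10.29 and 10.38 in Mdr2-KO, without overlap (0.96, SE 0.13, adjusted p = 0.00026), and annexin A2 (Anxa2) rose by 1.18 (SE 0.19, adjusted p = 0.000996). Ankrd1 and Ajuba, both targets or partners of the growth regulator YAP, rose by 1.10 and 0.88 (adjusted p = 0.00833 and 0.000915), and Ajuba read 6.23, 6.25 and 6.42 in wild type and 7.17, 7.25, 6.99, 7.29 and 7.21 in Mdr2-KO. Rragd, a Rag GTPase of the mTORC1 nutrient pathway and a target of the lysosomal regulator TFEB, read 5.59, 5.90 and 5.33 in wild type and 7.94, 7.96, 8.13, 7.74 and 7.97 in Mdr2-KO. The 5 Mdr2-KO arrays lay close together and the rise was 2.34 (SE 0.16, adjusted p = 5.14e-07), a 5.08-fold change. Lamp1, a glycoprotein of the lysosomal membrane, rose by 0.39 (adjusted p = 0.000501); 9 of 20 lysosomal genes rose, 3 without wild-type array 3. Of 19 genes of the unfolded protein response 2 rose and 1 fell; none fell without wild-type array 1, and 2 fell without Mdr2-KO array 3. The small heat shock protein Hspb1 read 7.91, 7.67 and 8.77 in wild type and 10.10, 9.56, 9.21, 9.27 and 9.32 in Mdr2-KO and Casp12, a caspase of the endoplasmic reticulum, 6.23, 7.21 and 5.64 in wild type and 8.57, 8.49, 8.86, 8.53 and 8.36 in Mdr2-KO, and both rose without overlap (1.37 and 2.20, adjusted p = 0.00299 and 7.58e-05). Of 27 cell cycle genes 1, Cdk2, was called: it was lower (-0.22, adjusted p = 0.033), and not once any wild-type array was omitted (adjusted p = 0.0638, 0.0753 and 0.0819), once Mdr2-KO array 2 or 5 was (0.0553 and 0.0564), or with only the groups compared in the fit (0.0541). The count was 3 without Mdr2-KO array 3.

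Further genes of matrix turnover, protein folding and antigen presentation rose. Of 15 matrix proteases, crosslinkers and inhibitors 6 rose and 1 fell (8.89% and 12.1% of all genes did); 3 rose without wild-type array 1 or Mdr2-KO array 1, 4 or 5, 2 rose without wild-type array 3, and none fell without wild-type array 1 or 3 or Mdr2-KO array 1, 3 or 4. Mmp14, a membrane-bound collagenase, read 8.26, 8.14 and 8.29 in wild type and 8.74, 8.65, 8.79, 8.75 and 8.76 in Mdr2-KO, a rise of 0.51 (SE 0.071, adjusted p = 0.000283) without overlap. Of 20 genes of stellate cells, myofibroblasts and TGF-beta 6 rose, 3 without wild-type array 1 or 3, and 2 fell, 1 without wild-type array 1 or 2 or Mdr2-KO array 1 and none without wild-type array 3. Pdgfra, a growth factor receptor of fibroblasts, rose by 0.72 (adjusted p = 0.00167). Of 11 cytosolic heat shock chaperones 4 rose, 2 without wild-type array 3, and Hsp90aa1, the inducible HSP90, read 9.78, 9.92 and 9.69 in wild type and 10.38, 10.64, 10.66, 10.65 and 10.19 in Mdr2-KO (0.71, SE 0.15, adjusted p = 0.0044). Among 13 MHC class II and dendritic cell markers the 3 class II genes H2-Aa, H2-Ab1 and H2-Eb1 rose. None of the 13 was called without wild-type array 1 or 3, 1 was without Mdr2-KO array 1, 4 or 5, and 6 were without wild-type array 2. Of 12 neutrophil markers none was called. Markers of pancreas, gut and gallbladder, which could come from tissue beside the liver, gave 1 fall and no rise in 10.

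Many small structural RNAs stood higher in Mdr2-KO than in either other group. Against wild type 51 of 72 were higher and 1 lower, and 40 were higher than in Mdr2-KO/IL6-KO. Small nucleolar RNAs guide the methylation and pseudouridylation of ribosomal RNA, and most mouse ones are cut from introns of host genes. Of 54 tested 38 rose (70.4%, against 8.89% of all genes) and none fell, with a median of 0.87. Snora3 read 8.97, 8.93 and 8.68 in wild type and 11.02, 10.93, 10.65, 10.70 and 10.89 in Mdr2-KO, while Mdr2-KO/IL6-KO averaged 9.28 ± 0.38 (SD, n = 6). The Mdr2-KO arrays lay above all others, by 1.98 (SE 0.18, adjusted p = 6.76e-06) against wild type and by 1.56 (SE 0.15, adjusted p = 0.000128) against Mdr2-KO/IL6-KO. Rnu3a, a U3 RNA that takes part in cutting the ribosomal precursor, read 5.69, 5.35 and 5.47 in wild type and 8.01, 8.29, 7.80, 7.46 and 7.75 in Mdr2-KO, while Mdr2-KO/IL6-KO averaged 6.00 ± 0.36. It differed by 2.36 (SE 0.20, adjusted p = 4.31e-06) from wild type and by 1.86 (SE 0.17, adjusted p = 8.43e-05) from Mdr2-KO/IL6-KO. Leaving out any 1 array gave between 36 and 40 rises among the 54. Between the knockouts 1746 of all genes were called (8.76%), and 30 of the 54 small nucleolar RNAs were, all of them higher in Mdr2-KO. That 30 became 26 without Mdr2-KO array 1 and 31 at most, while the count over all genes was 754 without Mdr2-KO array 1, 932 without array 3 and 999 without array 4, and 1055 and 1045 without array 4 or 5 of Mdr2-KO/IL6-KO. In Mdr2-KO/IL6-KO, where 2450 genes were called against the same wild-type arrays (12.3%), the median of the 54 was 0.31.

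Host genes of these RNAs moved in both directions. Of 32 small nucleolar RNA genes that lie in a single tested host, 21 rose, in 20 hosts, and of those hosts 5 rose, 2 (Ipo7 and Rpl4) fell and 13 were not called. Over all genes 21.0% were called. The median difference was 0.645 over all 32 RNAs and 0.107 over their 28 hosts. Snora3 lies in the ribosomal protein gene Rpl27a, which differed by 0.12 (adjusted p = 0.362). Snora31 rose by 1.10 (adjusted p = 5.59e-05), while its host Tpt1, a growth-related protein with abundant mRNA, differed by 0.10 (adjusted p = 0.197). Snord15b read 7.70, 7.32 and 7.19 in wild type and 9.30, 9.07, 9.40, 9.04 and 9.43 in Mdr2-KO, a rise of 1.84 (SE 0.19, adjusted p = 2.43e-05), and its host, the ribosomal protein gene Rps3, rose by 0.57 (adjusted p = 0.00233).

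Proteins of the guide RNA complexes moved in both directions. Of 19 ribosome biogenesis and snoRNP proteins 4 rose, 2 without wild-type array 3, and 5 fell (8.89% of all genes rose and 12.1% fell). Nhp2, a core protein of the pseudouridylation complex, read 6.57, 6.72 and 6.42 in wild type and 7.39, 7.28, 7.38, 7.52 and 7.44 in Mdr2-KO, a rise of 0.83 (SE 0.14, adjusted p = 0.000954). Dkc1, the pseudouridine synthase of the same complex, read 7.49, 7.71 and 7.58 in wild type and 6.92, 6.83, 7.04, 7.17 and 7.16 in Mdr2-KO and differed by -0.57 (SE 0.12, adjusted p = 0.00374). Polr1b, a subunit of the polymerase that makes ribosomal RNA, fell by 0.50 (adjusted p = 0.00134).

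**Figure D5:**
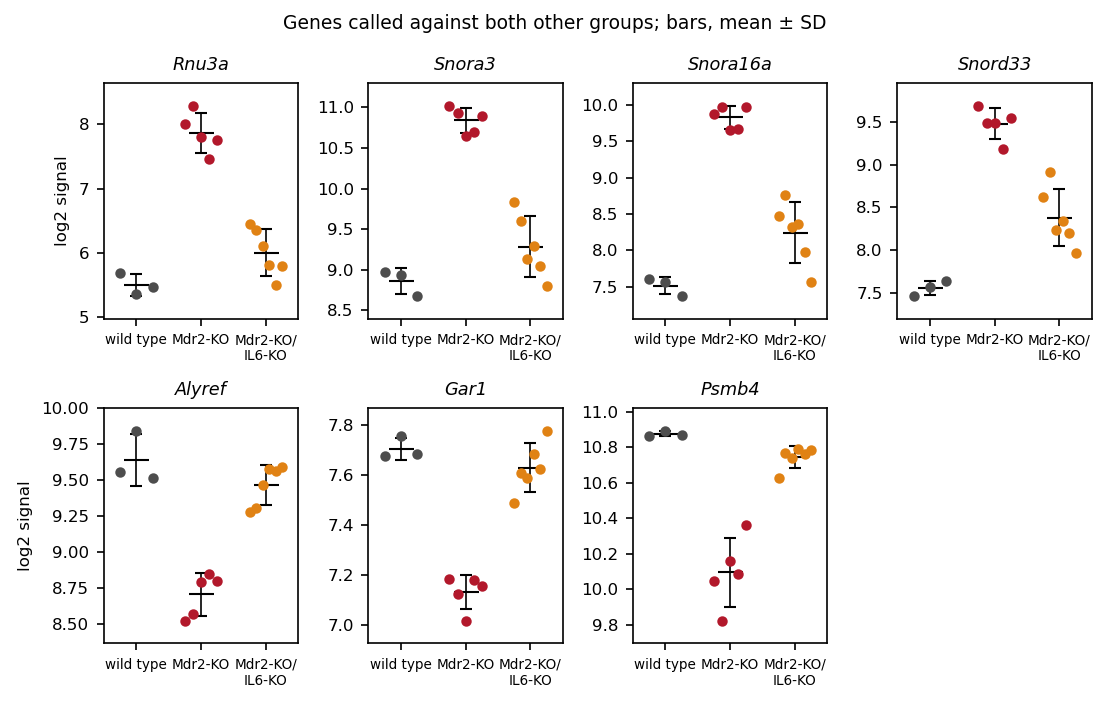
Log2 signal of 7 genes in each wild-type (grey), Mdr2-KO (red) and Mdr2-KO/IL6-KO (orange) array, with bars for the group mean ± SD. The 4 small nucleolar RNAs are highest in Mdr2-KO, and Alyref, Gar1 and Psmb4 are lowest there, with no Mdr2-KO array inside the range of another group.

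Some proteins that work with RNA, and some proteasome subunits, also differed between the knockouts. The examples below were picked, with their values known, from genes called in both comparisons, and the 2 comparisons share the Mdr2-KO arrays. Gar1, which binds the pseudouridylation guides, read 7.68, 7.76 and 7.68 in wild type and 7.18, 7.13, 7.02, 7.18 and 7.16 in Mdr2-KO, while Mdr2-KO/IL6-KO averaged 7.63 ± 0.097. It fell by 0.57 against wild type (adjusted p = 7.59e-05) and differed by -0.50 (SE 0.057, adjusted p = 0.000391) from Mdr2-KO/IL6-KO. Phf5a, a subunit of the splicing factor SF3b, read 10.29, 10.41 and 10.36 in wild type and 8.90, 8.82, 9.08, 8.96 and 9.08 in Mdr2-KO, while Mdr2-KO/IL6-KO averaged 9.92 ± 0.23. Its difference was -1.38 (SE 0.12, adjusted p = 4.31e-06) against wild type, a 2.61-fold change, and its difference from Mdr2-KO/IL6-KO -0.95 (SE 0.098, adjusted p = 0.00021). Alyref, an mRNA export adaptor, fell by 0.93 (adjusted p = 4.79e-05) and differed by -0.76 (SE 0.087, adjusted p = 0.000391) from Mdr2-KO/IL6-KO.

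The proteasome, the complex that degrades ubiquitin-tagged proteins, had 9 of 21 subunits lower (12.1% of all genes were) and 3 higher; the rises numbered 5 without wild-type array 1. Psmb4, a beta subunit of the catalytic core, read 10.87, 10.89 and 10.87 in wild type and 10.05, 9.82, 10.16, 10.08 and 10.36 in Mdr2-KO, while Mdr2-KO/IL6-KO averaged 10.74 ± 0.061. It fell by 0.78 (SE 0.086, adjusted p = 5.93e-05) and differed by -0.65 (SE 0.075, adjusted p = 0.000391) from Mdr2-KO/IL6-KO. Psmb2, Psmb3 and Psma6 fell by 0.46, 0.53 and 0.49, while Psma4 rose by 0.52 (adjusted p = 0.000644, 0.000458, 0.00125 and 0.00228). In all, 10 of the 21 differed between Mdr2-KO and Mdr2-KO/IL6-KO (8.76% of all genes did), 2 higher and 8 lower in Mdr2-KO, and against wild type 2 were lower in Mdr2-KO/IL6-KO and none higher.

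Ribosomal proteins and respiratory chain subunits rose more often than they fell. Rpl7, of the large ribosomal subunit, read 10.01, 9.72 and 9.40 in wild type and 10.61, 10.57, 10.57, 10.65 and 10.58 in Mdr2-KO, without overlap (0.89, SE 0.14, adjusted p = 0.000538), and 7 of 16 ribosomal protein genes rose and 3 fell. Uqcrfs1, the iron-sulfur protein of complex III, read 8.26, 8.09 and 7.89 in wild type and 8.77, 8.94, 8.90, 8.89 and 8.68 in Mdr2-KO, while Mdr2-KO/IL6-KO averaged 8.35 ± 0.18. It rose by 0.76 (SE 0.11, adjusted p = 0.000343) and differed by 0.49 (SE 0.09, adjusted p = 0.00557) from Mdr2-KO/IL6-KO. Of 23 oxidative phosphorylation genes 11 rose (8.89% of all genes did), 7 without wild-type array 3, and 2 fell.

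Some of the largest or most certain changes were in genes not described above. Cib3, a calcium- and integrin-binding protein, read 5.31, 6.64 and 5.4 in wild type and 9.34, 9.08, 8.66, 8.81 and 9.33 in Mdr2-KO, a rise of 3.26 (SE 0.25, adjusted p = 2.7e-06). Ly6d, a lipid-anchored surface protein, read 7.41, 7.58 and 6.37 in wild type and 9.86, 10.55, 10.45, 10.70 and 9.64 in Mdr2-KO (3.12, SE 0.35, adjusted p = 4.81e-05), and Tff3, a trefoil peptide of mucous epithelia, 6.71, 7.46 and 6.70 in wild type and 9.85, 10.13, 11.09, 9.03 and 9.25 in Mdr2-KO (2.91, SE 0.39, adjusted p = 0.000214). Pls1, an actin-bundling protein of microvilli, read 5.68, 6.00 and 5.55 in wild type and 7.84, 7.91, 7.91, 7.74 and 7.87 in Mdr2-KO, and its rise of 2.11 (SE 0.11, adjusted p = 3.97e-08) had the smallest p of the genes named. Slc22a26, an organic anion carrier, read 11.39, 11.04 and 11.28 in wild type and 8.80, 8.54, 10.21, 9.73 and 9.23 in Mdr2-KO, a difference of -1.93 (SE 0.32, adjusted p = 0.00105). Cyp17a1, a steroid hydroxylase, read 11.58, 10.44 and 11.48 in wild type and 8.23, 6.95, 9.54, 6.34 and 5.71 in Mdr2-KO, a difference of -3.81 (SE 0.61, adjusted p = 0.000813); array 3 was the highest of Mdr2-KO and still below the wild type. Between the groups compared no array overlapped in any of these 6 genes.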

How the data were processed

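The authors deposited 1 table of log2 values for 14 arrays, with 35557 probes; the submitters' processing notes name Partek and RMA (their versions, and a genome build: not given in the sources used here). Array medians ran from 6.15 to 6.24. Precision is limited by how many arrays there were. In GEO's platform annotation 21789 probes had 1 gene, 1621 several and 12147 none; 999 genes had more than 1 probe, of which the one with the highest mean was kept, giving 19938 genes. Every array column was used, and no pair of arrays shared more than 0.062% of its values. No scan date or slide was given.

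Group means of all 14 arrays were fitted with limma 3.58.1 (R 4.3.3) and moderated by eBayes. All p-values in the text are two-sided and come from this limma fit, adjusted by Benjamini-Hochberg over the 19938 genes. Of these genes 29.2% had a mean under background. The contrast of Mdr2-KO against wild type was tested on simulated data with 100 genes shifted by 0.5 and 100 by 1 (log2). It recovered 77% and 97% of them, with 12 false calls among the other genes of the 19938. The simulated noise was drawn independently for each gene, and no other gene was shifted. In the data 21.0% of genes were called and genes of Mdr2-KO array 3 moved together, so these rates need not hold there. Tables and plots used Python 3.11.15 and matplotlib 3.10.9.

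The 59 gene lists (1012 entries, 911 measured) and the genes described were chosen with earlier results of these data known. Genes were named by rule: Abcb4 and Il6; the 15 largest rises and 15 largest falls without overlap and above background; up to 4 called genes per list, or the member with the largest difference where none was called; the 10 called in both comparisons of Mdr2-KO with the largest difference between the knockouts; the 10 with the largest SD in Mdr2-KO; and up to 4 called genes each way within 10 Mb of Abcb4. Named outside it, after their values were seen, were Abcb11, Abcg5, Acadm, Acadvl, Alb, Ccr2, Hlf, Ipo7, Mir103-1, Mir103-2, Mir107, Mmp14, Nr1d2, Pank1, Pdgfra, Pemt, Pls1, Pltp, Psma4, Psma6, Psmb2, Rpl27a, Rpl4, Snora31 and Tpt1. Il6 lay under background in all groups, so its loss cannot be read here. Near-identical genes (Cyp4a12a and Cyp4a12b, Saa1 and Saa2, the Sult3a and Ly49 families) can share probe signal. Alternatives changed normalization, the dim-gene filter, the choice of probe, moderation, array weights, the groups in the fit and the arrays in turn.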

Additional observations from a re-analysis of the deposited data

Results flagged for a closer look

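In the 5 Mdr2-KO arrays, 31 of the 230 named genes had 1 array far from the other 4 by Dixon's criterion at the 95% level. Of these, 9 are among the 10 genes that were named for their large SD in Mdr2-KO, which favours genes with an array that stands apart; of the other 220 named genes 22 were marked, where chance marks about 1 in 20 groups. Genes of 1 sample are not independent of each other. In 23 of the 31 the array was number 3.

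Array 3 was high in granule genes of neutrophils and in a platelet chemokine. Log2 signal there was 10.12 for S100a8 (others 6.16 to 6.71), 10.35 for S100a9 (6.56 to 7.08), 9.16 for Mpo (5.27 to 5.71), 10.21 for the granule protein Ngp (5.0 to 5.4) and 8.55 for the platelet chemokine Ppbp (6.78 to 7.09). It was also high in acute phase and secreted proteins: Saa1 at 11.12 (6.97 to 7.51), Hp at 12.79 (12.45 to 12.52), Timp4 at 8.57 (4.77 to 5.33), Cxcl14 at 9.62 (7.6 to 7.81) and F12 at 11.31 (11.1 to 11.14). Further genes high in array 3 were Cd14 at 9.23 (7.86 to 8.15), Stat3 at 10.34 (9.7 to 9.85), Xbp1 at 11.27 (10.65 to 10.78), Pfkl at 7.97 (7.59 to 7.67) and Sult3a1 at 7.06 (2.44 to 2.88).

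The same array was low in fatty acid genes, with Cyp4a14 at 7.42 (others 10.35 to 11.35), Cyp4a10 at 9.22 (10.79 to 11.23), Acot2 at 7.35 (8.53 to 8.96) and the fatty acid elongase Elovl7 at 6.6 (7.46 to 7.67). It was low in the macrophage genes Gpnmb at 6.62 (7.84 to 8.26) and Mmp12 at 7.01 (8.57 to 8.91), and in Gsta4 at 10.28 (11.05 to 11.26) and F8 at 8.42 (8.86 to 8.95).

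Array 1 was high in 3 secretory genes, Bpifa2 at 8.9 (others 4.67 to 5.1), Scgb1b27 at 10.7 (6.67 to 6.99) and Mucl2 at 10.63 (6.88 to 7.89), and low in Cebpa at 9.27 (9.56 to 9.62). Array 5 was low in C5ar1 at 6.8 (7.0 to 7.06) and Fcgr4 at 7.13 (7.9 to 8.08). Array 2 was low in Ndufa1 at 7.77 (8.05 to 8.1), and array 4 was high in Ifit3 at 9.14 (8.62 to 8.75).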

How the results depend on the processing

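Against wild type 4189 genes were called, 1772 higher and 2417 lower; leaving out 1 array at a time gave 2140 to 4507, with 988 to 1680 higher and 1152 to 2908 lower, the lowest without wild-type array 3. With only the groups compared in the fit 1525 were lower. Asking for at least a 1.5-fold change left 799, with 456 higher and 343 lower. After quantile normalization 1793 were higher and 1763 lower. Between the knockouts, where 741 were higher and 1005 lower in Mdr2-KO, median centring gave 1056 higher and 424 lower, and array weights 1566 lower; leaving out 1 array at a time gave 754 to 1978 calls, 394 to 808 higher and 360 to 1277 lower. The difference of Abcb4 lay between -1.41 and -1.29 when 1 array was left out. Of the 220 named genes that were called, 138 kept direction and call under every setting and 82 lost the call under at least 1, most often without wild-type array 3 (68 genes) or 1 (52). Cdkn1b, lower as reported, was higher by 0.137 with the mean of a gene's probes (adjusted p = 0.393); the cause was not tested. Of 118 counts of list members called, 48 moved by more than 1.5 times without wild-type array 3 and 42 without array 1. Genes under background on the arrays of a group have only an upper limit there. No paired analysis was possible because the array numbers only name arrays.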
